A study of Mus musculus with 3 samples.

Results

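The 10 genes described here encode receptors of the platelet surface. They are *Itga2b* and *Itgb3*, *Gp1ba*, *Gp1bb*, *Gp9* and *Gp5*, *Gp6*, and *Treml1*, *Ly6g6f* and *Cd226*. They were chosen by name, with earlier results of these data known, and all 10 were found among the 27,994 genes of the count table. Single-cell transcriptomes had been collected from adult cardiac endothelium of female mice that carry a GFP transgene. The endothelial cells were sorted as CD31+VE-Cad+GFP+ cells that lacked CD41, CD45, PDGFRA and PDGFRB. They were used fresh (0 h) or co-aggregated with E11.5 *Mesp1*der PSCs for 24, 48, 72 or 96 h, then sorted again as GFP+CD31+VE-Cad+PDGFRA- cells. PSCs are PDGFRA+ stromal cells of the aorta-gonad-mesonephros region, here from *Mesp1*-DsRed embryos, and the culture medium held fetal calf serum, IL-3, SCF and Flt3L. Cells of all time points were combined into 3 pools, and 9,562 cells remained, which the authors had assigned to 7 clusters. CD41, which the first sort excluded, is the product of *Itga2b*, and no exclusion of CD41 is stated for the second sort.

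Each cell carries 1 of 3 library suffixes, which the sources used here tie to none of the 3 pools, and the time point of a cell is not given. The 9,562 cells thus count as a single sample (n = 1), and no test was run. Levels are UMIs (unique molecular identifiers, or counted mRNA molecules) per 10,000 UMIs of the group of cells, with exact Poisson 95% intervals, and shares of cells have exact (Clopper-Pearson) binomial 95% intervals. Both intervals cover counting error only. The libraries differed in depth, with medians of 23,651, 13,440.5 and 38,312 UMIs per cell for suffixes 1, 2 and 3, so shares and joint detection were computed at an equal depth, for which every cell was thinned to 5,000 UMIs. The 90 shallower cells, 1 of them in cluster 6, were left out of these. The authors made the clusters from the same counts, so differences of these genes between clusters are descriptions. UMIs were counted at the 3′ ends of transcripts and were not scaled to length, so levels are compared between cells and not between genes. The libraries shared 13 barcode sequences, carried by 26 cells, 1 of them in cluster 6.

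Platelets are shed by megakaryocytes, which make the mRNAs of these receptors. The integrin of *Itga2b* (αIIb) and *Itgb3* (β3) binds fibrinogen and links platelets to each other, and β3 also pairs with the αv subunit on endothelial cells. The products of *Gp1ba*, *Gp1bb*, *Gp9* and *Gp5* form the GPIb-IX-V complex, which holds platelets to von Willebrand factor. *Gp6* encodes the collagen receptor GPVI, which signals through the Fc receptor γ chain. *Treml1* encodes TLT-1 of the α-granule membrane, *Ly6g6f* a surface protein of the Ly6 region, and *Cd226* (DNAM-1) an adhesion receptor of platelets, T cells and NK cells that binds nectin-2 and the poliovirus receptor.

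All 10 genes are protein coding, and the spans given are those of whole genes with their exons and introns. On GRCm38, *Itga2b* lies on chromosome 11 (102453297-102470122, minus strand), with *Itgb3* (104608000-104670476, plus strand) and *Gp1ba* (70639122-70642036, plus strand) on the same chromosome. *Gp1bb* (18620317-18622403, minus strand) and *Gp5* (30307685-30310779, minus strand) lie on chromosome 16, *Gp9* on chromosome 6 (87778072-87779768, plus strand) and *Gp6* on chromosome 7 (4363965-4397744, minus strand). *Treml1* (48359916-48367176, plus strand) and *Ly6g6f* (35080480-35085610, minus strand) lie on chromosome 17. *Gp1bb* overlaps *Sept5* and *Gm49601* on its own strand, so counting could have split reads between these genes, and its values are uncertain to that extent. *Sept5* had 14 UMIs in cluster 6, against 8,734 of *Gp1bb*.

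A promoter was matched for 8 of the 10 genes in a RefSeq table (GRCm38.p6), all but *Itgb3* and *Cd226*. The 200 bases before the start of the coding transcripts are shown for αIIb and the 4 subunits of GPIb-IX-V, since the joint detection of receptor subunits is described below. They read 5′ to 3′ on the strand of the gene, and the 5 regions are chr11:102469884-102470083 (minus strand, *Itga2b*), chr11:70638922-70639121 (plus strand, *Gp1ba*), chr16:18622404-18622603 (minus strand, *Gp1bb*), chr6:87777870-87778069 (plus strand, *Gp9*) and chr16:30310782-30310981 (minus strand, *Gp5*). Capitals mark matches on either strand to letters bound by 3 families of factors. The letters searched were AGATAA, and likewise TGATAA, for the GATA family, CNGGAAG for the ETS family, where N is any base, and TGTGGT for the RUNX family.
*Itga2b*: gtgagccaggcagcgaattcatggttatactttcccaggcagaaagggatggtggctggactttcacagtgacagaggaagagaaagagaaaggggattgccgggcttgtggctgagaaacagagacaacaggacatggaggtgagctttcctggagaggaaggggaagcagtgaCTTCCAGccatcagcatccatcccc
*Gp1ba*: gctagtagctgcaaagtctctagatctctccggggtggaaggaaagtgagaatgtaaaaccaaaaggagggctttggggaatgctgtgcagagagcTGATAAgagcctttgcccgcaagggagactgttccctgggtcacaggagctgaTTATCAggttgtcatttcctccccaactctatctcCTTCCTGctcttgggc
*Gp1bb*: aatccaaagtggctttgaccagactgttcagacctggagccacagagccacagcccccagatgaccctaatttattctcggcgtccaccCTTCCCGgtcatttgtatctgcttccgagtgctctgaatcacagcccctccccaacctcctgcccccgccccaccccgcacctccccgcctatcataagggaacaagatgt
*Gp9*: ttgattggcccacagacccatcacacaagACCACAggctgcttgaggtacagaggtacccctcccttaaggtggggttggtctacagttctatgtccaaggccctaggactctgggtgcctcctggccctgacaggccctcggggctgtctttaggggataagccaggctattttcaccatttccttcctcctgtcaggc
*Gp5*: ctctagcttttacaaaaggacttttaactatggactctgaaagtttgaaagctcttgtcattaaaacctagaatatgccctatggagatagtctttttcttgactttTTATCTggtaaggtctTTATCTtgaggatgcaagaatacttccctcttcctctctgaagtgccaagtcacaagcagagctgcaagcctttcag

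The windows of *Gp1ba* and *Gp5* held 2 GATA matches each. *Itga2b* and *Gp1bb* held 1 ETS match each, *Gp1ba* also held 1, and *Gp9* held 1 RUNX match. No 2 of these matches overlap in the windows shown. Among the 8 windows, GATA letters were found in 4 (also *Gp6* and *Ly6g6f*), ETS letters in 4 (also *Ly6g6f*) and RUNX letters in 1, while the window of *Treml1* held none. Of all 32,851 windows of the same length in the table, 13.2% held the GATA letters, 22.9% the ETS letters and 11.2% the RUNX letters. A match describes the letters only, and 8 windows are too few to set against these shares.

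All 10 genes were highest in cluster 6, which holds 310 of the 9,562 cells. Their summed level was 38.5 UMIs per 10,000 (38.2-38.9) in cluster 6 and 0.248 (0.242-0.255) in the other clusters together. By library the sum in cluster 6 was 39.5, 35.8 and 40.1 per 10,000. Genes used as megakaryocyte markers other than these 10 summed to 199.9 per 10,000 in cluster 6 (158 to 229 by library), most of it *Pf4* (platelet factor 4) at 167, against at most 3.8 in any other cluster. Endothelial markers summed to 6.74 in cluster 6 and to between 34.6 and 50.0 in clusters 0, 1 and 2. Macrophage markers summed to 0.268 and those of neutrophils to 0.132 in cluster 6, and of the mast cell or basophil markers only *Cpa3* had UMIs there.

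The integrin subunits had low levels outside cluster 6 as well. *Itga2b* was at 6.65, 6.56 and 7.16 UMIs per 10,000 in cluster 6 for suffixes 1, 2 and 3, and at 6.77 (6.61-6.93) in all its cells. *Itgb3* was at 4.19, 5.18 and 4.21 per 10,000, and at 4.51 (4.38-4.64) in all. For both genes every library of cluster 6 was above every library of every other cluster, as the plot of levels by cluster shows. Against clusters 0 to 5 together, the log2 ratio was 6.14 (6.07-6.21) for *Itga2b* and 6.20 (6.11-6.28) for *Itgb3*, the smallest of the 10 genes.

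The 4 genes of GPIb-IX-V had higher ratios of cluster 6 over the other clusters than the integrin genes. *Gp1ba*, the subunit that binds von Willebrand factor, was at 1.05, 1.23 and 1.13 UMIs per 10,000 by library, with a log2 ratio of 7.97 (7.69-8.27) over clusters 0 to 5. *Gp1bb* was at 8.31, 7.13 and 8.90, with a log2 ratio of 8.45 (8.33-8.58). *Gp9* was at 5.64, 4.15 and 5.33, with a log2 ratio of 7.47 (7.35-7.58). The lowest of the 3 libraries of *Gp9* and *Gp1bb* was suffix 2, which was not the lowest for *Gp1ba*. *Gp5*, the subunit cut by thrombin, was at 4.30, 3.54 and 4.63, with a log2 ratio of 8.17 (8.02-8.33).

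The other 4 receptors had the highest ratios of the 10 genes, though the interval of *Treml1* overlapped that of *Gp1bb*. *Gp6* was at 0.962, 0.727 and 0.770 UMIs per 10,000 in cluster 6, with a log2 ratio of 9.25 (8.75-9.80) over clusters 0 to 5, where 33 UMIs were counted in all. *Treml1* was at 6.36, 5.34 and 5.94, with a log2 ratio of 8.51 (8.36-8.66). *Ly6g6f* was at 1.38, 1.40 and 1.54, with 34 UMIs in clusters 0 to 5 and the highest log2 ratio of the 10 (9.99, 9.50-10.53). *Cd226* was at 0.658, 0.541 and 0.547, with a log2 ratio of 9.34 (8.72-10.02). No *Cd226* UMI was counted in cluster 0, whose depth allows up to 0.00238 per 10,000 (3 UMIs).

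**Figure D1:**
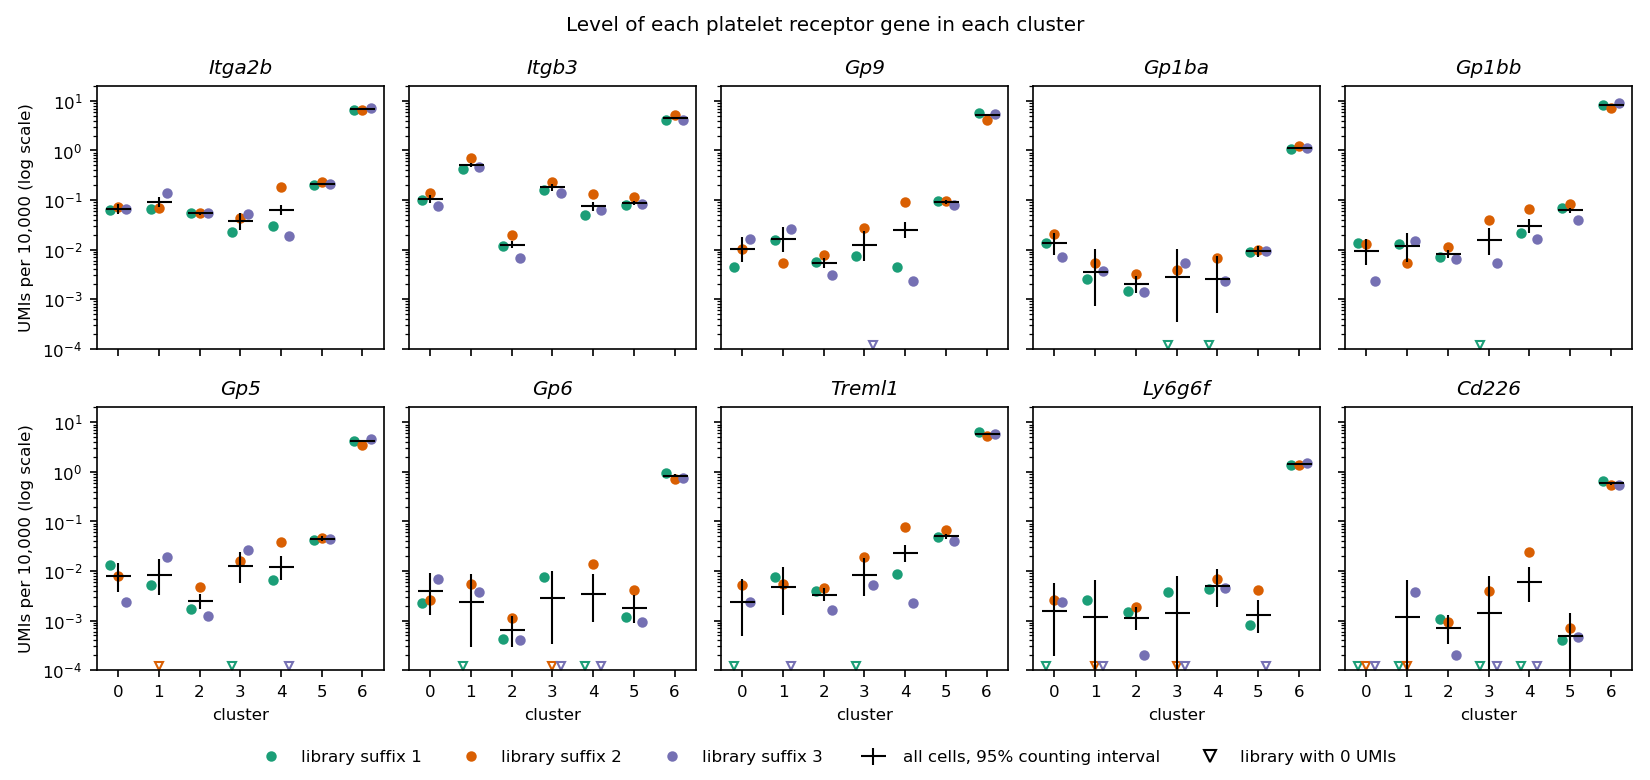
Level of each of the 10 receptor genes (UMIs per 10,000, log axis) in clusters 0 to 6, with 1 point per library suffix and a black mark for all cells with its 95% counting interval. Open triangles at the foot mark libraries with 0 UMIs. In every panel the 3 libraries of cluster 6 lie above all other points, while *Itgb3* has a second, lower rise in cluster 1.

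Of 13,975 genes with at least 100 UMIs over all cells, 453 (3.24%) were at least 4-fold higher in cluster 6 than in clusters 0 to 5 together and 2,009 (14.4%) at least 4-fold lower. All 10 receptor genes were among the higher ones, with a median log2 ratio of 8.31, against -0.26 over all genes tested. Cluster 5 comes next to cluster 6 in the authors' numbering, which runs from high *Cdh5* to high *Runx1*. It gave a median log2 ratio of cluster 6 over cluster 5 of 6.91 for the 10 genes and of -0.03 for all tested. All 10 were again at least 4-fold higher, and 5.24% of all genes tested were called so. Calls add the same small count to the sum of each cluster, and cluster 6 has the smaller total. A gene with no UMI in either cluster is thus called higher in cluster 6, so this share may be too high. Each of the 10 genes had UMIs in both clusters.

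Outside cluster 6 the genes did not keep the proportions they had there. Of the UMIs of the 10 genes, *Itga2b* took 17.6% in cluster 6 (16.8% to 18.3% by library) and 37.9% in cluster 5 (35.5% to 41.5%). *Gp1bb* took 21% in cluster 6 and 11% in cluster 5 (10.0-12.1%). *Ly6g6f* fell from 3.72% to 0.234% and *Cd226* from 1.53% to 0.0878%. In cluster 1, *Itgb3* took 78.1% (74.4-81.6%), against 11.7% in cluster 6. These shifts were larger than the range over the libraries in both clusters.

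Cluster 5 was the second highest for *Itga2b*, *Gp9*, *Gp1bb*, *Gp5* and *Treml1*. *Itga2b* was at 0.212 UMIs per 10,000 there (0.201-0.224), followed by 0.0903 in cluster 1 and 0.0667 in cluster 0, whose intervals overlap. It was at 0.0642 in cluster 4, 0.0543 in cluster 2 and 0.0378 in cluster 3, each with an interval that overlaps that of its neighbour in this order. *Gp9* was at 0.0904 in cluster 5 (0.0830-0.0982) and at no more than 0.0253 in clusters 0 to 4. Cluster 5 over clusters 0, 1 and 2 gave at least 4-fold higher levels for 4 of the 10 genes, while 6.7% of all genes tested passed that limit. These were *Treml1* (log2 ratio 3.91, 3.48-4.35), *Gp9* (3.82, 3.52-4.14), *Gp5* (3.8, 3.36-4.25) and *Gp1bb* (2.87, 2.59-3.17). Without suffix 2, 5 of the 10 passed. *Itga2b* had a log2 ratio of 1.89 (1.77-2.01) and *Itgb3* of 0.96 (0.79-1.12). For *Gp6*, *Ly6g6f* and *Cd226* the interval of the ratio held 0, with 11, 8 and 3 UMIs in cluster 5.

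At 5,000 UMIs per cell, 139 of 1,568 cells of cluster 5 had an *Itga2b* UMI (8.86%, 7.5-10.4%) and 72 had a *Gp9* UMI (4.59%, 3.61-5.75%). In cluster 4, where the collagen genes *Col1a1*, *Col1a2* and *Col3a1* were highest, the shares were 1.56% (0.68-3.06%) for *Itga2b* and 0.195% (0.005-1.08%) for *Gp9*. Cluster 4, which by its markers should lack both genes, serves here as a reference for UMIs from free RNA. Clusters 3 and 4 together, also taken as this reference, gave 1.60% for *Itga2b* and 0.399% for *Gp9*. In clusters 0, 1 and 2 the shares were higher, at 3.32%, 3.89% and 3.01% for *Itga2b* and 0.693%, 0.940% and 0.614% for *Gp9*. Median depth before thinning was 36,065.5 UMIs in cluster 5 and 19,475.5 in cluster 4. Free RNA in single cells of cluster 5 was not estimated, so a cell with 1 UMI may not express the gene. In cluster 5, 21 cells had both *Itga2b* and *Gp9*, which is 15.1% of the cells with *Itga2b* and 29.2% of those with *Gp9*. *Itga2b* and *Itgb3*, the subunits of one integrin, were found together in 17 cells, or 20.5% of the cells with *Itgb3*.

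The cells of cluster 5 with *Itga2b* were then set beside the other cells of that cluster, a comparison chosen after the values were seen. Macrophage markers were lower in them, at 3.21 against 21.8 UMIs per 10,000 (log2 ratio -2.76, -2.96 to -2.57), in each of the 3 libraries. Neutrophil markers were at 3.86 against 11.2 (log2 ratio -1.54, -1.72 to -1.36), with log2 ratios by library of -2.07, -1.30 and -0.13, while *Mpo*, a myeloperoxidase of granulocyte progenitors, was at 3.83 against 2.53. *Gata1*, a transcription factor of erythroid, megakaryocyte and mast cells, was at 0.662 against 0.137, and its partner *Zfpm1* at 1.61 against 0.526. *Myb* was at 1.31 against 0.605. Levels of single genes were not compared by library here. Mast cell and basophil markers were at 3.34 against 0.456, but their log2 ratios by library were -0.64, 5.78 and 0.60, so that this difference came from suffix 2. *Pf4* was at 1.28 against 1.39, a log2 ratio whose interval (-0.45 to 0.19) holds 0. The cells with *Gp9* in cluster 5 were alike in their macrophage markers (2.72 against 21) and in *Zfpm1* (1.61 against 0.575), but had *Gzmb* at 0 UMIs and *Mpo* at 1.03 against 2.73.

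*Itgb3* was second highest in cluster 1, at 0.426, 0.716 and 0.462 UMIs per 10,000 by library and 0.502 (0.455-0.552) in all. The next levels were 0.181 in cluster 3 and 0.104 in cluster 0, and the lowest 0.0126 in cluster 2, with no overlap of these intervals. At 5,000 UMIs, 136 of 745 cells of cluster 1 had an *Itgb3* UMI (18.3%, 15.5-21.2%). *Itgav*, the αv subunit that pairs with β3, was also highest in cluster 1 (0.546 per 10,000) and was at 0.0863 in cluster 6. In the cells of cluster 1 with *Itgb3*, compared after the values were seen, *Itgav* was at 0.882 against 0.460 in the other cells (log2 ratio 0.94, 0.48-1.39). *Selp*, P-selectin of platelets and activated endothelium, was at 2.01 against 1.10 (log2 ratio 0.87, 0.57-1.16), and *Cdh5* (VE-cadherin) at 13 against 9.57. Megakaryocyte markers other than the 10 genes summed to 5.10 against 3.48. Their log2 ratios by library were -0.01, -0.36 and 2.22, so this difference came from suffix 3. *Pf4* was at 2.38 against 1.74 (log2 ratio 0.45, 0.19-0.71). Single genes were not compared by library here. Erythroid markers were at 0.426 against 12.2, with log2 ratios by library of -4.48, -8.80 and 1.14, and macrophage markers at 1.18 against 2.92, and their part in these differences was not tested. The median depth of these cells was 9,156 UMIs, against 8,112 in the others.

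Of 9,163 cells outside cluster 6 at 5,000 UMIs, 13 had 4 or more of the 10 genes. They included 1 cell of cluster 4 from suffix 2 with 152 UMIs of these genes and 269 of *Pf4*, and 1 cell of cluster 1 from suffix 3 with 49 and 154. Without such cells *Itga2b* in cluster 4 fell from 0.0642 to 0.0280 UMIs per 10,000, and without suffix 2 to 0.0246. In cluster 4, 1 cell held 43 of the 76 *Itga2b* UMIs, and only the cell of suffix 2 named above had 4 or more of the genes. The level there thus rests mostly on 1 cell of that library. The 7 cells of this kind in cluster 5 had between 4 and 13 UMIs of the 10 genes and, in 6 of 7, at most 3 of *Pf4*. Scrublet called none of the 13 a doublet, but it called only 8 cells in all (0.0837%).

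Within cluster 6 most cells had several of the genes. At 5,000 UMIs per cell, 306 of 309 cells had at least 1, and 212 (68.6%, 63.1-73.7%) had 5 or more. The median was 6 of the 10 genes for suffixes 1 and 2 and 7 for suffix 3. No cell of clusters 0, 2 and 3 had 5 or more, and 1 cell did in each of clusters 1, 4 and 5. All 10 genes were found in 17 cells at this depth, and in 112 of 310 (36.1%) in the cells as deposited. Median depth in cluster 6 was 39,153, 14,671.5 and 60,762 UMIs per cell for suffixes 1, 2 and 3.

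**Figure D2:**
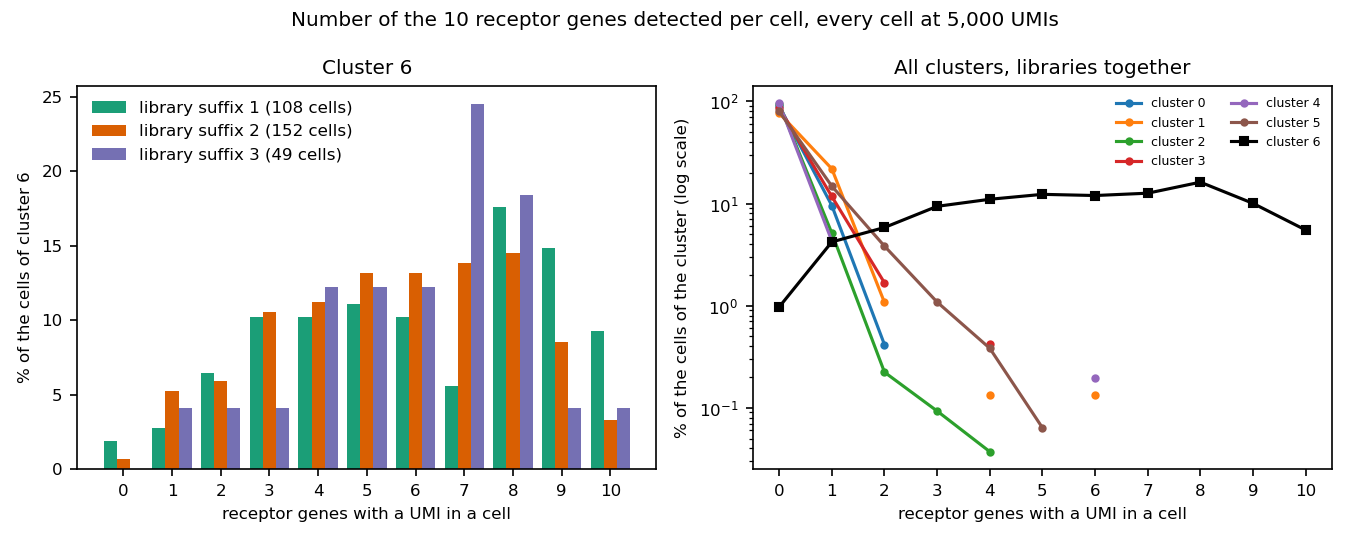
Number of the 10 receptor genes detected per cell at 5,000 UMIs. The left panel gives the percentage of cluster 6 cells by library suffix (108, 152 and 49 cells) and the right panel all clusters on a log axis. Cluster 6 spreads from 0 to 10 genes, while in the other clusters most cells have none.

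The share of cluster 6 cells with a UMI at 5,000 UMIs was 84.5% for *Itga2b* (79.9-88.3%), 84.1% for *Gp1bb*, 80.9% for *Treml1*, 73.8% for *Itgb3*, 69.6% for *Gp9* and 68.0% for *Gp5*. It was 40.5% for *Ly6g6f*, 36.9% for *Gp1ba*, 26.9% for *Gp6* and 19.4% for *Cd226* (15.2-24.3%). Of the 60 cells with *Cd226*, 59 also had *Itgb3* and 58 had *Itga2b*.

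Each gene was detected more often in cells with more of the other 9. *Gp1ba* was found in 10.0% (4.1-19.5%) of cells with 0 to 3 of the others, in 24.8% with 4 to 6 and in 63.9% (54.7-72.4%) with 7 to 9. *Ly6g6f* rose from 4.69% to 31.6% and 72.5%, *Gp6* from 3.12% to 16.1% and 48.8%, and *Cd226* from 1.59% to 8.85% and 36.8%. *Itga2b* differed least, at 66.7% (55.7-76.4%), 86.9% and 97.0% (91.5-99.4%). For all 10 genes the intervals of the first and last of these sets of cells did not overlap.

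**Figure D3:**
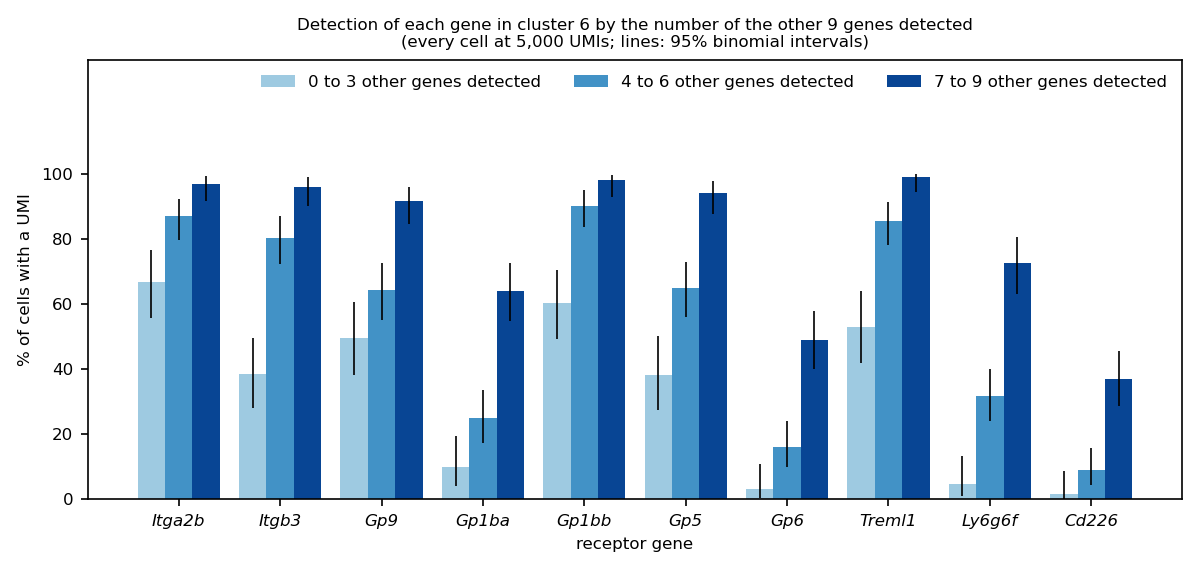
Percentage of cluster 6 cells with a UMI of each receptor gene at 5,000 UMIs, by how many of the other 9 genes the cell had (0 to 3, 4 to 6 or 7 to 9), with 95% binomial intervals. The bars rise from left to right for each gene, from 66.7% to 97.0% for *Itga2b* and from 1.59% to 36.8% for *Cd226*.

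The 45 pairs of genes were compared by phi, the correlation of detection (yes or no) over the 309 cells. All 45 values were above 0, between 0.12 and 0.41, with a median of 0.27 (0.32, 0.24 and 0.19 by library). Over all pairs of a receptor gene with a gene tested, the median was -0.01. The log2 counts at this depth gave correlations between 0.22 and 0.66, with a median of 0.48. These are descriptions over cells that share their libraries, and no p is given.

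Pairs of subunits of one receptor lay within the range of the other pairs, and phi and the log2 counts placed them differently. *Itga2b* and *Itgb3* had a phi of 0.33 (0.33, 0.33 and 0.38 by library), and both were found in 209 of 309 cells (67.6%, 62.1-72.8%). This is 91.7% of the cells with *Itgb3* and 80.1% of those with *Itga2b*. The 6 pairs within GPIb-IX-V had a median phi of 0.22 (0.20 to 0.30), and the 38 pairs that share no complex had a median of 0.28. By the correlation of log2 counts the order was the other way. The median was 0.53 over the 6 pairs within GPIb-IX-V and 0.48 over the 38 others. Over all 7 pairs within a receptor the medians were 0.23 by phi and 0.57 by log2 counts. *Gp9* with *Gp5* (0.64) and *Itga2b* with *Itgb3* (0.63) were among the highest of the 45 on that scale, below *Itga2b* with *Treml1* (0.66). Phi also depends on how often each gene of a pair was detected. The highest phi values were those of *Itgb3* with *Gp1bb* (0.41) and of *Gp1ba* with *Gp6* (0.38). All 4 subunits of GPIb-IX-V were detected in 82 cells (26.5%, 21.7-31.8%), 3 in 93, 2 in 73, 1 in 46 and none in 15. In the cells as deposited the 4 were found together in 64.8%, and αIIb with β3 in 90.6%.

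**Figure D4:**
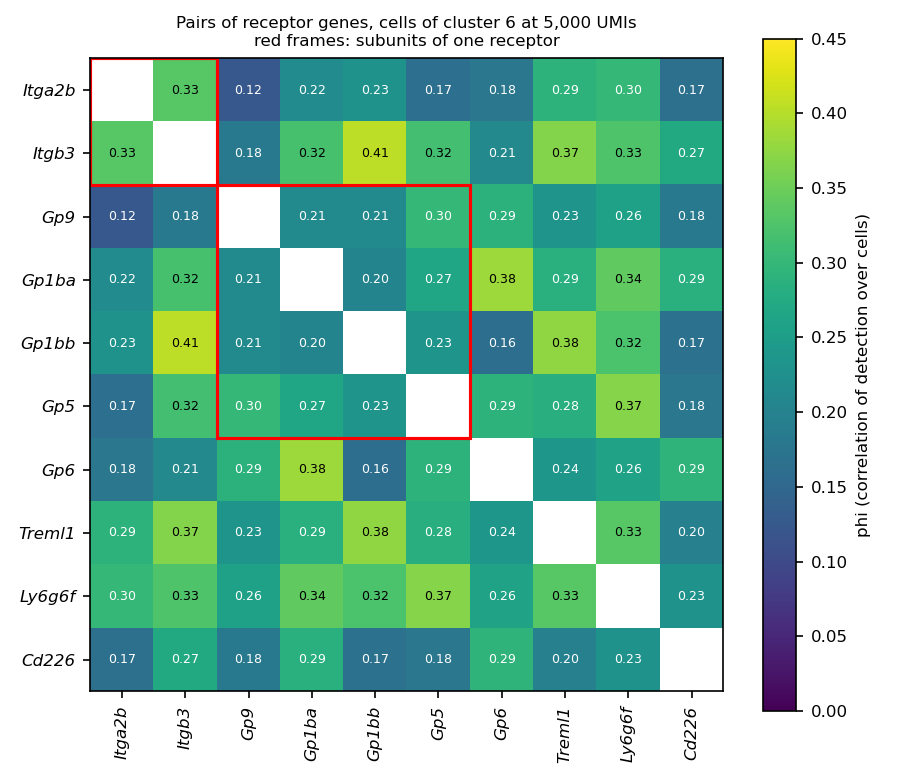
Phi of each pair of receptor genes over 309 cells of cluster 6 at 5,000 UMIs, on a colour scale from 0 to 0.45. Red frames enclose αIIb with β3 (0.33) and the 4 subunits of GPIb-IX-V (0.20 to 0.30), which lie within the range of the pairs outside the frames (0.12 to 0.41).

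The other genes of cluster 6 differed between cells with many and few of the receptors. The 97 cells with 4 or fewer of the 10 genes were set beside the 98 with 8 or more, all at 5,000 UMIs, and 161 of the 309 cells lay within 1 gene of a limit, so the 2 sets are ends of a range. Their median depths before drawing were 33,107 and 31,695.5 UMIs. Among 2,017 genes at 1 or more UMIs per 10,000 in either set, 109 (5.4%) were at least 4-fold higher in the cells with many and 17 (0.843%) in those with few. The clusters and the split both rest on the receptor genes, and no test was run.

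The 8 genes named for the cells with many receptors had different roles. *Ppbp*, a chemokine precursor of α-granules, was at 24.7, 13.7 and 14.8 UMIs per 10,000 by library in these cells and at 0.412, 0.824 and 0 in those with few (log2 ratio 5.03, 4.49-5.63). *Alox12*, platelet 12-lipoxygenase, was at 7.0 against 0.206, and *F5*, coagulation factor V, at 2.06 against 0.103. *Myl9* (myosin light chain) was at 7.49 against 0.412 and *Gsn* (gelsolin) at 1.55 against 0.0412. *Hist1h2bc* was at 3.22 against 0.103, the long non-coding RNA *Neat1* at 2.14 against 0.103 and *Actc1* (cardiac actin) at 1.69 against 0.0206, the last from 20 of 98 cells and 1 of 97. The libraries of the 2 sets did not overlap for any of these 8 genes.

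Among genes with the same direction in every library, *Apoe* had the largest ratio toward the cells with few receptors, at 4.00, 2.82 and 2.17 UMIs per 10,000 by library against 0.267, 0.550 and 0.308 (log2 ratio -3.02, -3.80 to -2.33). *Phgdh*, the first enzyme of serine synthesis, was at 1.73 against 0.245, and *Car2* (carbonic anhydrase 2) at 3.61 against 0.735. *Hells*, a helicase of dividing cells, was at 1.18 against 0.224. *Siva1* was at 2.23 against 0.429, *Igfbp4* at 2.23 against 0.388, *Pdcd4* at 1.65 against 0.327 and the non-coding *Zfas1* at 1.57 against 0.265. Without suffix 2 the log2 ratio of *Igfbp4* was -0.97. With the levels of the cells as deposited it was -1.19, that of *Siva1* -1.55 and that of *Hells* -1.79, each less than 4-fold. The other genes named here stayed past 4-fold with those levels. All 3 libraries with few receptors were above all 3 with many for each of the 8. Cell cycle markers summed to 16.2 per 10,000 in the cells with few and 7.41 in those with many (log2 ratio -1.13, -1.31 to -0.95).

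**Figure D5:**
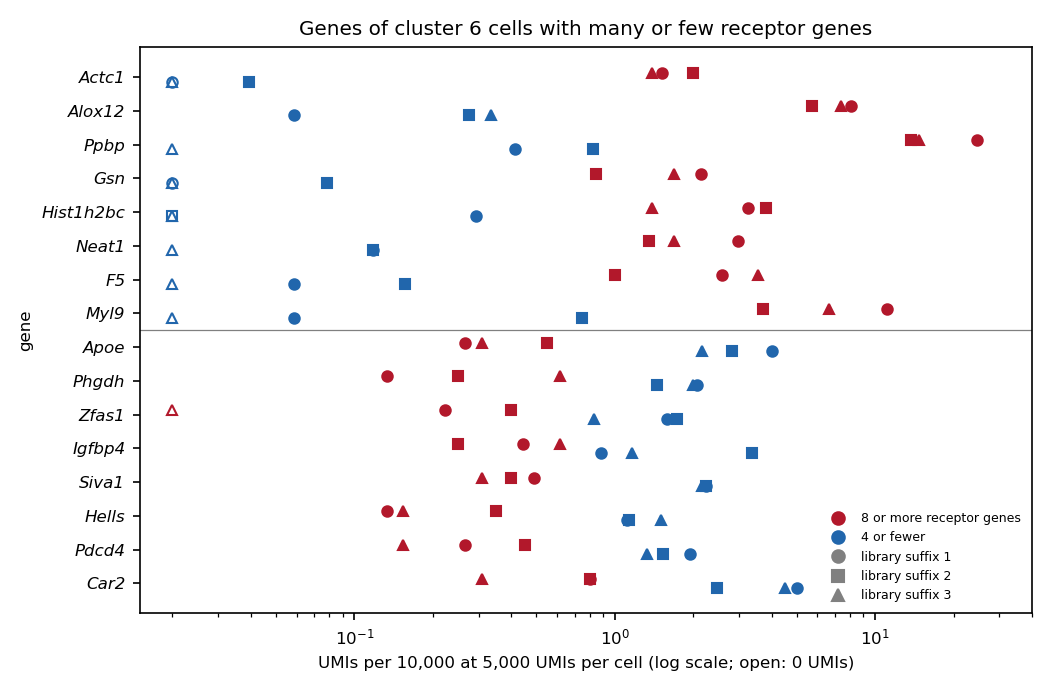
Levels of 16 genes (UMIs per 10,000, log axis) in cluster 6 cells with 8 or more (red) and 4 or fewer (blue) of the 10 receptor genes, with 1 symbol per library suffix and open symbols for 0 UMIs. The 8 genes above the line, such as *Ppbp*, are higher with many receptors in every library, and the 8 below it, such as *Apoe*, with few.

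The megakaryocyte markers without the receptors summed to 349.6 UMIs per 10,000 with many receptors and 38.5 with few (log2 ratio 3.18, 3.11-3.25). *Pf4* accounted for most of this, at 286.5 against 28.8. Endothelial markers summed to 7.98 with many and 10.1 with few, and their ranges over the libraries overlapped (5.69 to 8.40 and 4.71 to 14.5). Cardiomyocyte markers summed to 1.8 against 0.0412, nearly all of it *Actc1*, and fibroblast markers to 0.653 against 0.0619, and their part in the differences was not tested. Of the granule and cytoskeleton list, all 9 genes at 1 or more UMIs per 10,000 in either set were at least 4-fold higher with many receptors. Of the megakaryocyte transcription factors, 0 of the 10 at that level were, close to the 5.4% of all genes, and their median log2 ratio was 0.67. Over the 2,017 genes the median log2 ratio was -0.14.

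Partners, ligands and signalling genes of the receptors were described in cluster 6 against clusters 0 to 5 together, with 3.24% of all genes at least 4-fold higher and 14.4% at least 4-fold lower as the background. Among 10 genes for GPVI and CLEC2 signalling 5 were higher (*Syk*, *Lat*, *Lcp2*, *Plcg2* and *Btk*). The Fc receptor γ chain *Fcer1g*, with which GPVI forms its complex, was at 4.55 UMIs per 10,000 in cluster 6 (3.62 to 5.08 by library), but also at 6.04 in cluster 5 and 3.87 in cluster 1. *Clec1b*, which encodes the podoplanin receptor CLEC2, was at 4.86 in cluster 6 and 2.16 in cluster 2. Of 7 genes that activate integrins, *Fermt3* (kindlin-3), *Tln1* (talin), *Rap1b* and *Rasgrp2* were higher and *Fermt2* (kindlin-2) lower, with *Fermt3* at 9.15 UMIs per 10,000 in cluster 6 and 0.435 in clusters 0 to 5.

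Of 9 receptors for platelet agonists 7 were at least 4-fold higher in cluster 6, among them the thrombin receptor subunit *F2rl2* (3.74 UMIs per 10,000) and the ADP receptor *P2ry1* (0.933). The ADP receptor *P2ry12* was at 0.0204 in cluster 6, from 22 UMIs, and at 0.197 in cluster 5. Of 10 other integrin subunits 1 was higher (*Itgb2*) and 2 were lower (*Itgb5* and *Itgam*), counts near the shares over all genes. *Itgb1*, the β1 subunit of collagen and fibronectin receptors, was at 4.03 in cluster 6, between its levels in clusters 3 (1.18) and 1 (9.17). *Itga2*, its partner in the platelet collagen receptor, was at 0.0761, below clusters 0, 1 and 2 (0.180 to 0.206).

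Of 9 measured ligand genes only *Thbs1* (thrombospondin-1) was at least 4-fold higher in cluster 6, at 10.6 UMIs per 10,000 (9.58 to 12.5 by library), while 5 of the 9 were at least 4-fold lower (*Fn1*, *Vtn*, *Col1a1*, *Col3a1* and *Nectin2*). The median log2 ratio of the 9 was -2.07, against -0.26 over all genes tested. *Vwf*, which encodes the ligand of GPIb, was at 1.23 in cluster 6 and 5.21 in cluster 0. *Fn1* (fibronectin) was at 10.3 in cluster 0 and 0.201 in cluster 6. The ligands of CD226 were lowest where *Cd226* was highest, with *Nectin2* at 0.145 in cluster 6 and 0.205 to 1.66 in the other clusters, and *Pvr* at 0.0325 and 0.0576 to 0.679. The fibrinogen genes *Fga*, *Fgb* and *Fgg* had 0 UMIs in every cluster. *Col1a1* and *Col3a1*, collagen chains that GPVI binds, were at 5.58 and 6.97 in cluster 4 and at 0.0353 and 0.0928 in cluster 6.

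Granule and cytoskeleton genes were at least 4-fold higher in cluster 6 for 9 of 12, with *Ppbp* at 7.90 UMIs per 10,000 against at most 0.0190 in any other cluster. *Selp* was not among them, at 0.0399 in cluster 6 and 1.22 in cluster 1. Of 12 transcription factors, 7 were higher (*Gata1*, *Gfi1b*, *Nfe2*, *Tal1*, *Runx1*, *Zfpm1* and *Meis1*) and *Ets1* was lower. Over the 21 groups of a cluster and a library, the genes whose log2 level followed the sum of the 10 receptor genes most closely were *Pf4* (Pearson r = 0.99), *Rabgap1l* (0.99), *Aftph* (0.98), *Serpinb2* (0.98), *Tbxas1* (0.98), *Vps33b* (0.97), *Mrvi1* (0.97), *Mfsd2b* (0.97), *F5* (0.97) and *Gm6583* (0.97). The 10 receptor genes, each of them part of that sum, had values of 0.95 to 0.98, and the median over all genes tested was -0.14. By rank (Spearman) the receptor genes had values from 0.25 (*Ly6g6f*) to 0.85 (*Itgb3*), and the median over all genes tested was -0.07. These correlations carry no p, since the groups share their libraries and cluster 6 sets most of the range. *Gm6583* was at 0.0501 per 10,000 in cluster 6.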

How the data were processed

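Reads of 10x 3′ libraries had been processed by the authors with Cell Ranger 3.1.0 on mm10 (GRCm38), including a correction between runs. The submitters' processing notes also name Seurat 3.1.5. The study states a minimum of 5,000 UMIs per cell, but 90 cells of the deposited table sum to less. Clusters came from scanpy. What the authors deposited and is used here is a table of raw counts (UMIs for each Ensembl identifier in each cell) and the cluster of each cell. The deposited normalized values and map coordinates were not used. The annotation used for counting is not given in the sources used here. GENCODE M21 named 27,645 of 27,998 identifiers, and counts of equal names were summed. The 10 genes and all gene lists were chosen with earlier results of these data known. Genes were named if they were among the 10, among the complex partners or ligands in these lists, among the 10 most alike, or among the 8 with the largest ratio in each direction between cells with many and few receptors (1 or more UMIs per 10,000 and the same direction in every library). Some list genes were named as examples after their values were seen. The limits of 4 and 8 genes split off nearly equal numbers of cells at both ends. Called genes had a ratio of at least 4 with 0.5 added to each sum. Drawing used random seed 1. The scripts were tested on simulated counts. Scrublet called 8 cells doublets. The study describes the cells it kept as singlets, and whether the caller worked on them was not tested. The 8 cells stayed in and were removed in 1 alternative. Other alternatives were thresholds of 0 and 1 instead of 0.5 counts per 10,000, 10,000 UMIs per cell, another seed, other minimum counts, another pseudocount than 0.1 and each library left out. Software comprised scanpy 1.11.5 and anndata 0.12.19 for Scrublet, scipy 1.17.1 for intervals, matplotlib 3.10.9 for figures, and pandas 2.3.3 with numpy 2.4.6 under Python 3.11.15. Some items are not reported here.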

Additional observations from a re-analysis of the deposited data

How the results depend on the processing

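The summed level of the receptor genes in cluster 6 (38.5 UMIs per 10,000) was 39.95 as the mean of the cells, 39.6 at 5,000 UMIs per cell, 39.1 without called doublets and between 37.9 and 39.8 with a library left out, moves beyond counting error but within 1.1 times. The share of cluster 6 cells with 5 or more receptor genes (68.6%) was 87.7% in the cells as deposited above 0.5 counts per 10,000 and 85.1% at 10,000 UMIs (242 cells), so it depends on depth, and stayed within its interval with another seed, without doublets or without any library. The median phi stayed between 0.22 and 0.28. All 10 genes stayed at least 4-fold higher in cluster 6 with each library left out. With a minimum of 1 UMI in place of 100, 21,185 genes were tested. Of these, 2,680 (12.7%) were called at least 4-fold higher in cluster 6 than in clusters 0 to 5, in place of 453 (3.24%). Over cluster 5, 4,122 (19.5%) were called, in place of 732 (5.24%), and 1,156 of 15,915 (7.26%) with a minimum of 30. For cluster 5 over clusters 0, 1 and 2 the number was 2,073 (9.79%), in place of 936 (6.7%). The total of cluster 6 is the smaller one and 0.5 was added to each sum. The added calls for cluster 6, and those over cluster 5 with the minimum of 100, can thus include genes with no UMI in cluster 6. Of the 10 genes most alike, 3 were also among the top 10 by Spearman correlation and 5 with a pseudocount of 0.01. Of the 16 genes named for cells with many and few receptors, 7 to 11 were again among the top 8 of their side with a library left out, and 11 at 10,000 UMIs or, in an alternative chosen after seeing the data, with the levels of the cells as deposited, while all 16 kept their direction in each. No paired analysis was possible because the cells could not be traced to the numbered pools.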

Other observations

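Embryonic globins were found in a few cells of cluster 6, chosen for description after their values were seen. *Hba-x*, *Hbb-y* and *Hbb-bh1*, the globin genes of the first red cells of the embryo, had 5,022 UMIs in the 97 cells with 4 or fewer receptor genes and 1,052 in the 98 cells with 8 or more, every cell at 5,000 UMIs. In the cells with few receptors 5 cells held 97.1% of these UMIs, with 1,327 in 1 cell, and in those with many 5 cells held 96.6%. At least 1 UMI was found in 36.1% and 25.5% of the cells. The 3 cells of cluster 6 with none of the 10 receptor genes had *Hbb-y* at 836.7 UMIs per 10,000, all of it in 2 of them, and *Pf4* at 0, while *Pf4* was at 5.69 in the 13 cells with 1 receptor gene, 138 in the 37 with 6 and 394.8 in the 17 with all 10.

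Erythroid markers as a list summed to 16.6 UMIs per 10,000 in the cells with many receptors and 14.9 in those with few, with ranges over the libraries of 12 to 19.2 and 2.50 to 18.8. *Epor*, the erythropoietin receptor, was at 0.577 in cluster 6 and at most 0.132 in any other cluster. *Klf1*, a transcription factor of red cells, was at 0.0752 in cluster 6 and 0.307 in cluster 5.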
